A study of Homo sapiens with 6 samples.

Results

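Genes of ribosome biogenesis and of the RNA exosome were followed in A375 cells, an established human melanoma line, after exposure to panobinostat, an inhibitor of histone deacetylases. The set held 48 genes chosen by name, of 25343 gene lines in the table, and all 48 were found and tested: 37 that build ribosomes and 11 subunits of the exosome. Parental A375 cells were given 50 nM panobinostat for 24 h or the same volume of PBS (vehicle, 0 nM), and bulk RNA of 3 libraries per group was sequenced. Nothing in the labels says whether the libraries came from separate cultures, so the p-values rest on a spread between libraries that may be technical alone. No genetic change and no other agent is named.

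Ribosomes are assembled mainly in the nucleolus, where RNA polymerase I transcribes a long ribosomal RNA precursor that small nucleolar ribonucleoproteins (snoRNPs) modify and large assembly machines fold and cut. The small and large subunits are then built by separate sets of factors. The RNA exosome, a ring of subunits with a cap and associated ribonucleases, trims ribosomal RNA precursors and degrades many other nuclear and cytoplasmic RNAs. Growing tumour cells are known for large nucleoli and a high output of ribosomes.

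Totals per library were 32293283 to 38944399 counts. The chi-square per degree of freedom was 1.90 to 9.14 between libraries of a group, highest for the pairs with vehicle replicate 3, and 312 to 359 between groups. The 9 melanoma lineage markers summed to 1904 to 2043 CPM (each library's counts scaled to a common total) in vehicle and to 704 to 775 CPM with panobinostat, with MLANA and TYR at 0 in every library. Most of that sum was ERBB3, with mean levels of 1020.2 CPM in vehicle against 119.6 CPM in treated libraries, and SOX10, with 813 against 368 CPM. PMEL went the other way, from 0.492 to 0.697 CPM in vehicle to 186 to 204 CPM with panobinostat. The 9 markers of blood, epithelial, endothelial, liver and glial cells summed to 0.232 to 0.389 CPM in vehicle and 3.76 to 4.29 CPM with panobinostat, where most of it was PECAM1, with PTPRC and CDH1 at 0 in vehicle. The part of these markers in the results below was not tested.

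Most of the 48 genes fell with panobinostat, by less than 2-fold. With edgeR's quasi-likelihood test, adjusted by Benjamini-Hochberg over all 15499 genes tested, 39 were lower, 8 were higher and 1 did not pass. Over all genes tested 41.0% were lower and 41.8% higher, so a call as such was common. The median log2 fold change was -0.61 in the 48 genes and 0.0085 over all genes, and the 48 values ran from -0.94 to 0.49. At least 1.5-fold falls were called for 26 of the 48, against 22.8% of all genes. At least 1.5-fold rises were called for 0 of the 48, against 27.5% of all genes, and 0 reached a 2-fold fall, against 11.7% of all genes. Vehicle and panobinostat ranges were apart for 46 of the 48, against 83.4% of all genes: 38 with panobinostat lower (41.5% of all genes) and 8 with it higher (42.0%). The 8 rises were those of PES1, FBL, DIS3, RRS1, UTP3, NOL6, RRP12 and RRP9. Without vehicle replicate 2, and separately with no filter on low counts, 4 of these 8 passed. In bulk RNA, fewer cells in a given state and less RNA per cell cannot be told apart, and values are relative to each library's total, since spike-in controls held 0 counts.

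**Figure D1:**
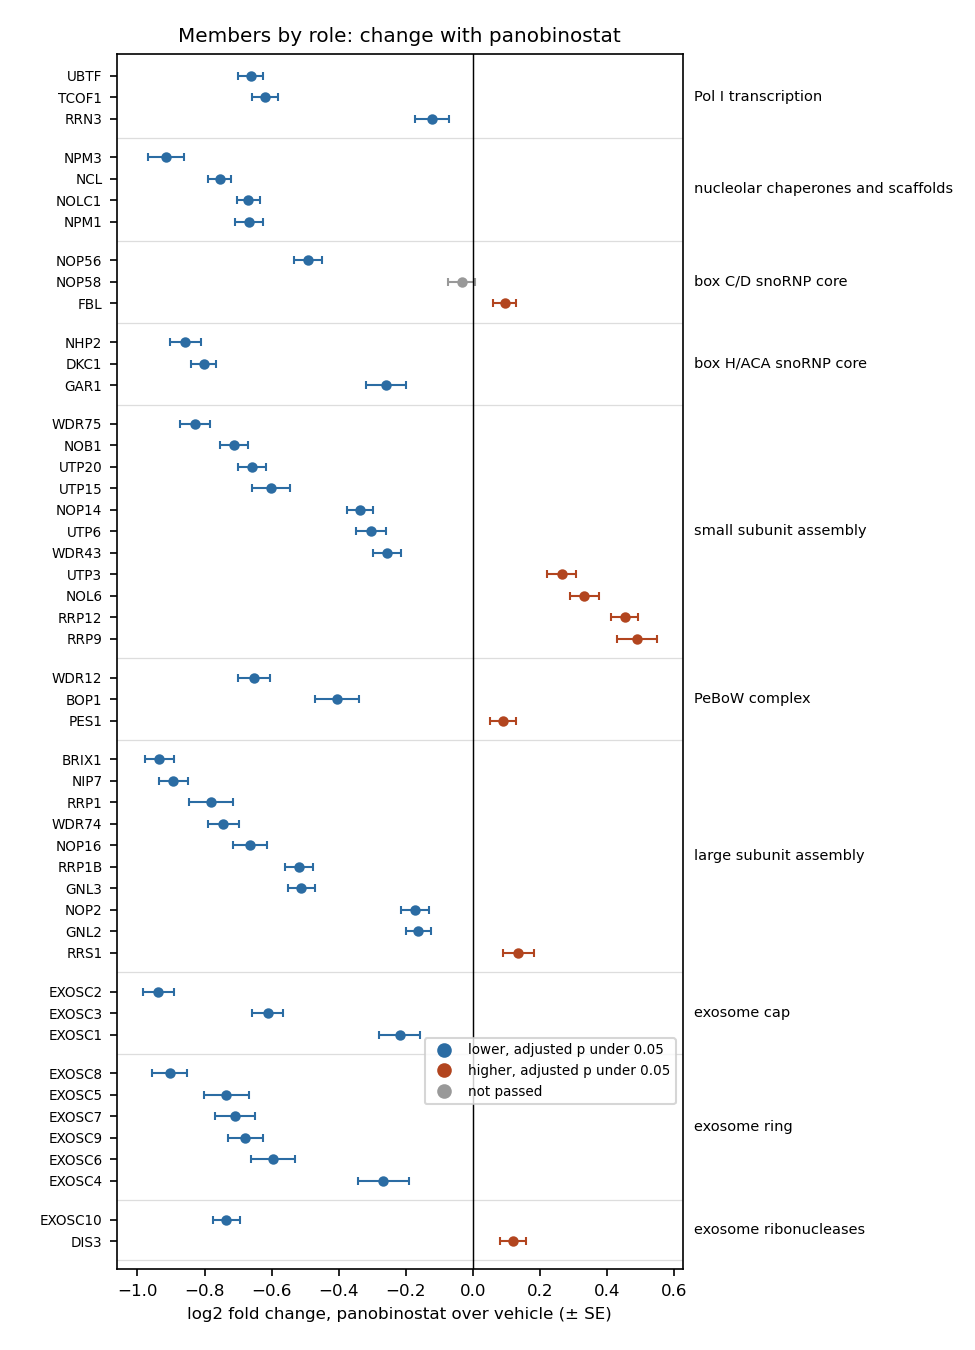
Log2 fold change of panobinostat over vehicle for the 48 genes, 1 row per gene grouped by role; points are edgeR estimates from 3 libraries per group and bars are ± SE. The 39 genes called lower reach -0.94, the 8 called higher reach 0.49, and NOP58 did not pass.

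The 48 genes took a smaller share of the libraries after treatment. Their counts made up 0.756%, 0.751% and 0.773% of the vehicle libraries and 0.548%, 0.555% and 0.562% of the panobinostat libraries. NCL and NPM1 together supplied 33.3%, 33.5% and 35.1% of those counts in vehicle and 28.9%, 28.8% and 29.1% with panobinostat. With both left out, the share of the others was 0.504%, 0.499% and 0.502% in vehicle and 0.390%, 0.395% and 0.398% with panobinostat. The exosome genes alone made up 0.0749%, 0.0752% and 0.0755% of the vehicle libraries and 0.0581%, 0.0573% and 0.0580% of the panobinostat libraries. In each of these shares the vehicle libraries lay above the treated ones.

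Promoter windows from RefSeq (GRCh38.p14, 250 bases before to 50 after an annotated start) were found for 39 of the 48 genes. They were searched for CACGTG, the canonical E-box bound by MYC and related factors, which reads the same on both strands; no other motif was searched. It was present for 12 of 39 genes (30.8%), against 12.3% of tested genes with a window and 8.77% of all gene symbols with one. A gene was counted if any of its windows held the motif. Counted by window instead of by gene, it was in 7.26% of all windows of that length. Among the genes called higher it was found in 4 of 6 (FBL, NOL6, PES1 and RRP9), and among those called lower in 8 of 33. FBL and PES1 kept their calls under 8 and 6 of 14 alternatives. Neither passed with a replicate block, with no filter on low counts or without vehicle replicate 2 or 3. That leaves NOL6 and RRP9 as the rises with the motif whose calls held under all 14 alternatives. UTP3 and DIS3, the other rises searched, held no copy, and the call of UTP3 also held under all 14. RRP12 and RRS1, also called higher, had no window and were not searched. In all tested genes the shares were 11.8% of those higher and 12.6% of those lower. A match describes letters in the window and is not evidence of binding. The windows below were chosen to show genes of either direction with the motif, and 1 without it. EXOSC5 fell and holds 2 copies. RRP9, NOL6 and PES1 were called higher and hold 1 each, and EXOSC2, the largest fall, holds none. Each is written 5′ to 3′ on the gene's strand with the E-box in capitals: EXOSC5 at chr19:41397310-41397609 (minus strand), RRP9 at chr3:51941855-51942154 (minus), NOL6 at chr9:33473875-33474174 (minus), PES1 at chr22:30591861-30592160 (minus) and EXOSC2 at chr9:130693510-130693809 (plus).
EXOSC5: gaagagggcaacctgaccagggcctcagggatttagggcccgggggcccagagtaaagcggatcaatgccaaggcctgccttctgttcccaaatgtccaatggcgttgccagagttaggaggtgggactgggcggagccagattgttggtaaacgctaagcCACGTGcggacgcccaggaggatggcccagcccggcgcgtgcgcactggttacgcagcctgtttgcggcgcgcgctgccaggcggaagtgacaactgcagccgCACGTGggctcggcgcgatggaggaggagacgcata
RRP9: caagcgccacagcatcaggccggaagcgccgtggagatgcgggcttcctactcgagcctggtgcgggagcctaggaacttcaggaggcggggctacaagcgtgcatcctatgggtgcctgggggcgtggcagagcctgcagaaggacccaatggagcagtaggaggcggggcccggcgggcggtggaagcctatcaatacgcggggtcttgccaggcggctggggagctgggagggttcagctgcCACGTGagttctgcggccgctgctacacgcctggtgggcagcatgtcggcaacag
NOL6: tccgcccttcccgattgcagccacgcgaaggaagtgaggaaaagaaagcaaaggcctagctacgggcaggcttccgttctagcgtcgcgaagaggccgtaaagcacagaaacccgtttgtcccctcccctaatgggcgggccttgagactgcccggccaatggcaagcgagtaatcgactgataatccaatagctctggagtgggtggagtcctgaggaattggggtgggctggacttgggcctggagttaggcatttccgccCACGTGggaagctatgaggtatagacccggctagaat
PES1: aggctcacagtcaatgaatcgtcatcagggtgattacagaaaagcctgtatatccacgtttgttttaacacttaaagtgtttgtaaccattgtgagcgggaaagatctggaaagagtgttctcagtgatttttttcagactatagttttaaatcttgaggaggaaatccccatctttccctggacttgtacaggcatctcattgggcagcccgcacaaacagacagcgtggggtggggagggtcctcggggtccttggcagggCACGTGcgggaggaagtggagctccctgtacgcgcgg
EXOSC2: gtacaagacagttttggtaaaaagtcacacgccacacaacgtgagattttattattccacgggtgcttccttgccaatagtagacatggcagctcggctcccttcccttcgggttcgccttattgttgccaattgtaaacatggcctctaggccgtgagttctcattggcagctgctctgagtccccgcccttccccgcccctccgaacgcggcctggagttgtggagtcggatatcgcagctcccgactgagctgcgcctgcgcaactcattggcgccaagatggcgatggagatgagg
In EXOSC5 the copies began 89 bases before and 14 bases after the annotated start. In RRP9 the motif began 5 bases before the start, and in NOL6 and PES1 it began 13 bases after it.

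Factors of RNA polymerase I transcription were lower. UBTF, which binds ribosomal DNA and keeps it open for the polymerase, stood at 177, 173 and 172 CPM in vehicle and 107, 109.9 and 113 CPM with panobinostat. TCOF1 (treacle), a nucleolar scaffold that works with UBTF, stood at 264, 257 and 244 CPM in vehicle and 164, 166 and 168 CPM with panobinostat. Both sets of libraries were well apart, with log2 changes of -0.66 ± 0.04 (SE, n = 3 per group) and -0.62 ± 0.04. RRN3 (TIF-IA), which recruits the polymerase to the promoter, behaved differently: its libraries held 86.6, 88.5 and 93.7 CPM in vehicle and 83.8, 86.7 and 76.6 CPM with panobinostat, and the ranges overlapped. Its call (-0.12, edgeR adjusted p = 0.0361) was lost under 9 of 14 alternatives, among them upper quartile scaling (-0.00031), DESeq2 (-0.10) and leaving out vehicle replicate 3 (-0.10), panobinostat replicate 1 (-0.13) or panobinostat replicate 3 (-0.07). The table also lists RRN3 pseudogenes, with counts at 0.123% to 1.99% of those of RRN3, so reads could be split between copies.

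The nucleolar chaperones and scaffolds all fell, 4 of 4, where 41.0% of all genes tested were lower. NCL (nucleolin), which binds the ribosomal RNA precursor, stood at 964, 971 and 1012 CPM in vehicle and 575, 585 and 587 CPM with panobinostat. NPM1 (nucleophosmin), a histone and ribosome chaperone, averaged 1613 ± 95.8 CPM (SD, n = 3) in vehicle and 1015 ± 28.2 CPM with panobinostat. Its smaller relative NPM3 fell from 44.996, 46.9 and 45.9 CPM to 23.6, 23.9 and 25.5 CPM. The log2 changes were -0.92 ± 0.05 for NPM3 and -0.67 ± 0.04 for NPM1, a difference that was not tested. NOLC1 (Nopp140), a scaffold for snoRNPs, fell from 353 ± 7.78 to 222 ± 2.74 CPM. The groups did not overlap in any of these 4, as in 83.4% of all genes tested (41.5% with panobinostat lower). The reference annotation names 45 pseudogenes of NPM1, so its count is uncertain. It names at least 1 pseudogene for 10 of the 48 genes, among them NCL, NHP2, NIP7, NOP56 and EXOSC3. Their part in the counts was not tested.

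Of the snoRNP core proteins, all 3 of the box H/ACA class fell, while in the box C/D class 1 fell, 1 rose and 1 did not pass. Over all genes tested 41.0% were lower and 41.8% higher, and the difference between the classes was not tested. In the box C/D class, which guides methylation of ribosomal RNA, the scaffold protein NOP56 fell from 177, 169 and 172 CPM to 118, 123 and 128 CPM, a log2 change of -0.49 ± 0.04. NOP58, its partner, held 136, 139 and 146 CPM in vehicle and 135, 136 and 141 CPM with panobinostat, overlapping groups with a difference of -0.03 ± 0.04 (edgeR adjusted p = 0.468) that turned to 0.09 when scaled by upper quartile and to 0.06 when genes under 5 CPM were dropped. Fibrillarin (FBL), the methyltransferase itself, held 192, 191 and 188 CPM in vehicle and 202, 202 and 206 CPM with panobinostat, slightly higher in each treated library. That rise (0.10, edgeR adjusted p = 0.0194) was lost without vehicle replicate 2 (0.08) or 3 (0.07), without panobinostat replicate 1 (0.10) or 3 (0.08), and with no filter on low counts (0.05). In the box H/ACA class, which guides pseudouridine formation, the pseudouridine synthase DKC1 (dyskerin) fell from 182, 181 and 181 CPM to 103, 104 and 106 CPM. NHP2 fell alike, from 116, 117 and 110.3 CPM to 62.1, 60.9 and 66.7 CPM, with log2 changes of -0.80 ± 0.04 for DKC1 and -0.86 ± 0.05 for NHP2. GAR1 moved less, from 33.1, 33.7 and 37.3 CPM to 27.8, 30.4 and 28.8 CPM (-0.26 ± 0.06), although the groups stayed apart.

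Ratios of counts within a library, which no scaling between libraries can alter, were compared for 10 pairs of subunits of 1 complex. NOP56 counts per FBL count were 0.923, 0.886 and 0.916 in vehicle and 0.583, 0.609 and 0.622 with panobinostat, a log2 difference of -0.59. GAR1 counts per DKC1 count rose from 0.191 ± 0.0128 to 0.279 ± 0.0125 (SD, n = 3), and BOP1 counts per PES1 count fell from 0.381 ± 0.0338 to 0.270 ± 0.00786. WDR12 counts per PES1 count were 0.641, 0.675 and 0.693 in vehicle and 0.408, 0.397 and 0.396 with panobinostat. The groups did not overlap in 9 of the 10 pairs, which is near the 82.9% found over all pairs of tested genes with counts in every library. Each of these 9 had an exact two-sided permutation p of 0.1 (0.111 adjusted over the 10), the smallest that 3 libraries against 3 allow, so none could pass 0.05. NHP2 per DKC1 was the exception, at 0.638, 0.645 and 0.608 in vehicle and 0.603, 0.587 and 0.632 with panobinostat (exact permutation p = 0.2).

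**Figure D2:**
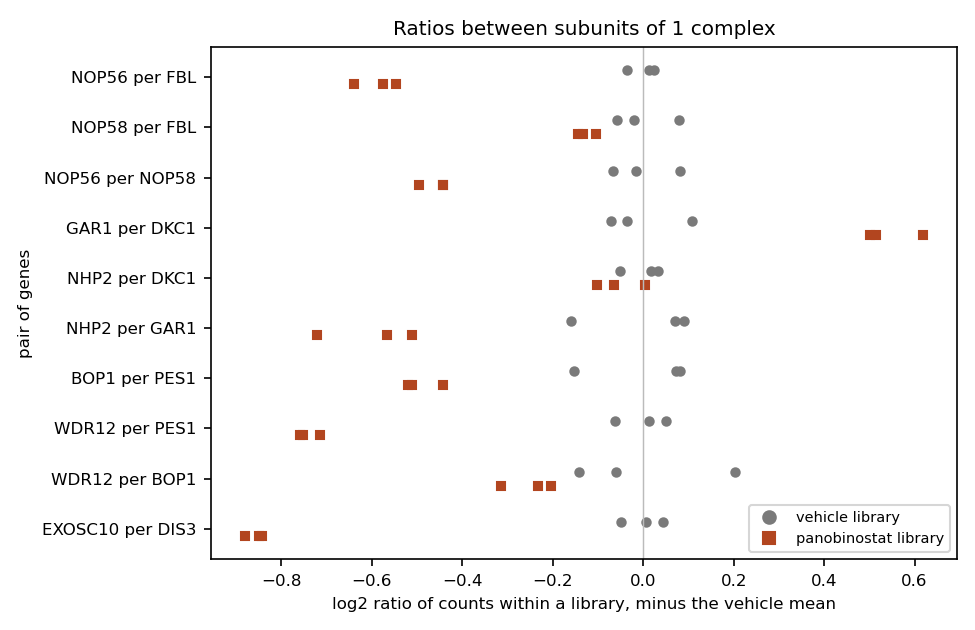
Log2 ratio of counts of 2 subunits of 1 complex within each library, minus the mean of the vehicle libraries, for 10 pairs; circles are vehicle and squares panobinostat libraries. EXOSC10 per DIS3 shows the lowest difference, -0.86, GAR1 per DKC1 the highest, 0.55, and NHP2 per DKC1 overlaps.

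Small subunit assembly factors split in direction, with 7 of 11 lower (63.6%) and 4 higher (36.4%). Over all genes tested 41.0% were lower and 41.8% higher, so the share of rises was not above that of all genes. Lower were WDR75 and UTP15, parts of the group that joins the precursor while it is being transcribed, UTP20, and NOB1, the endonuclease of the last cut that matures the small subunit's RNA. WDR75 stood at 92.7, 97.4 and 99.7 CPM in vehicle and 54.3, 53.7 and 55.3 CPM with panobinostat. NOB1 fell from 108 ± 2.17 to 65.7 ± 1.249 CPM, UTP20 from 201 ± 3.89 to 127 ± 6.75 CPM, and UTP15 from 44.8 ± 0.979 to 29.5 ± 1.86 CPM. Smaller falls were called for NOP14 (-0.34), UTP6 (-0.30) and WDR43 (-0.26), another early-joining factor.

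The 4 small subunit factors that rose lay above the vehicle range in every treated library, as did 42.0% of all genes tested. RRP9, the protein specific to the U3 snoRNP that directs early cuts of the precursor, held 31.2, 29.8 and 28.5 CPM in vehicle and 39.3, 41.7 and 44.7 CPM with panobinostat. RRP12, needed for the maturation and export of subunit precursors, held 159.5, 157 and 147 CPM in vehicle and 211, 208 and 216 CPM with panobinostat. NOL6, a component of the early small subunit particle, held 179, 171 and 159 CPM in vehicle and 214, 212 and 216 CPM with panobinostat. For these 3 genes vehicle replicate 3 was the lowest vehicle library, and every panobinostat library lay above every vehicle library. UTP3, another component of that particle, held 54.0, 53.1 and 54.0 CPM in vehicle and 64.3, 64.7 and 64.8 CPM with panobinostat. The log2 changes were 0.49 ± 0.06 for RRP9, 0.45 ± 0.04 for RRP12, 0.33 ± 0.04 for NOL6 and 0.27 ± 0.04 for UTP3, and all 4 calls held under each of the 14 alternatives. In the list of 45 other small subunit assembly factors 32 fell and 4 rose, against 10 rises when scaled by upper quartile, 9 under the filter of 5 CPM and 2 with no filter.

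**Figure D3:**
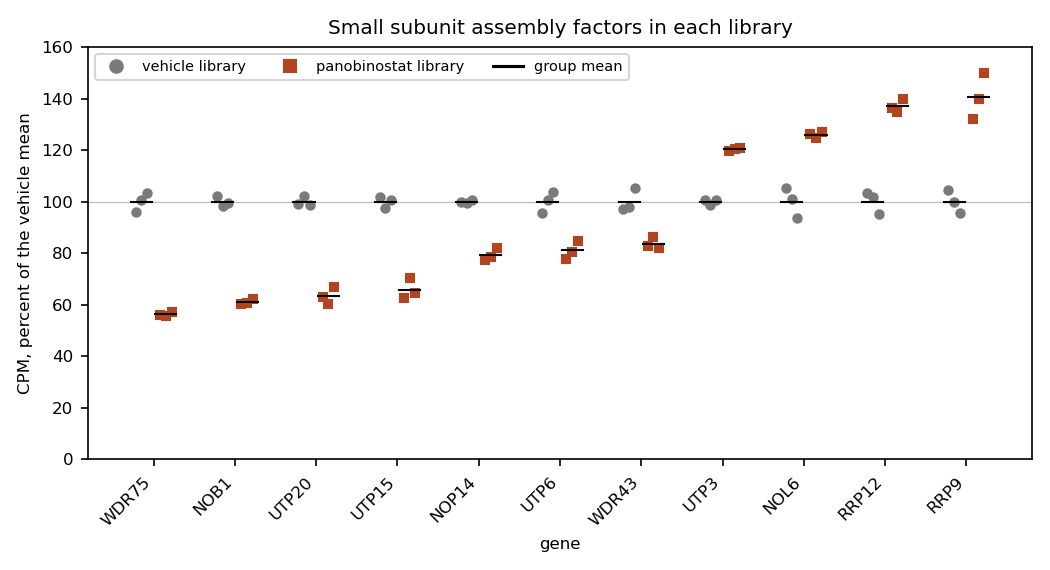
CPM of the 11 small subunit assembly factors in each library as a percent of the gene's vehicle mean, with circles for vehicle, squares for panobinostat and lines for group means. WDR75 lies at 55.6 to 57.3 percent in the treated libraries and RRP9 at 132 to 150 percent.

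The PeBoW complex, which links PES1, BOP1 and WDR12 and is needed to process the RNA of the large subunit, had 2 genes that fell and 1 that rose. Among all genes tested 41.0% were lower and 41.8% higher, so calls in both directions were common. WDR12 fell from 64.7, 68.2 and 70.1 CPM to 43.0, 42.7 and 43.5 CPM, a log2 change of -0.65 ± 0.05. BOP1 fell from 40.5, 40.3 and 34.5 CPM to 28.0, 28.5 and 30.7 CPM (-0.40 ± 0.07), with vehicle replicate 3 lower than the other vehicle libraries but above all treated ones. PES1 was at 101 CPM in each vehicle library and at 105, 108 and 109.9 CPM with panobinostat. That small rise (0.09 ± 0.04, edgeR adjusted p = 0.0406) was lost when any 1 of the 6 libraries was left out (0.07 to 0.10) and with no filter on low counts (0.05).

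Other factors of the large subunit were mostly lower, 9 of 10 (90%), against 41.0% of all genes tested. The largest falls were those of BRIX1, an assembly factor of the large subunit, and NIP7, a processing factor. BRIX1 held 139.6, 141 and 154 CPM in vehicle and 76.0, 74.9 and 76.6 CPM with panobinostat, and NIP7 127, 126 and 135 CPM against 67.5, 70.4 and 70.6 CPM. RRP1, a nucleolar processing factor, fell from 22.8, 22.3 and 20.6 CPM to 12.5, 12.7 and 13.03 CPM. The log2 changes of RRP1 and its paralog RRP1B were -0.78 ± 0.07 and -0.52 ± 0.04, a difference that was not tested. WDR74 fell from 62.4 ± 0.698 to 37.3 ± 0.947 CPM and NOP16 from 51.1 ± 1.65 to 32.2 ± 1.002 CPM. Of the nucleolar GTPases, GNL3 (nucleostemin) fell from 209 ± 9.98 to 147 ± 1.40 CPM, while GNL2 changed by -0.16 ± 0.04, from 171 ± 3.38 to 153 ± 0.247 CPM. The RNA methyltransferase NOP2 changed by -0.17 ± 0.04. The calls of GNL2 and NOP2 were lost when scaled by upper quartile (-0.04 and -0.05) and under the filter of 5 CPM (-0.07 and -0.08). RRS1, which acts with RPF2 to bring the smallest ribosomal RNA into the large subunit, went the other way: 51.7, 50.8 and 53.8 CPM in vehicle and 56.9, 57.3 and 57.6 CPM with panobinostat. Its log2 change of 0.14 ± 0.05 (edgeR adjusted p = 0.0111) did not pass without vehicle replicate 2 (0.10) or with no filter on low counts (0.09).

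RNA exosome genes fell in 10 of 11 cases (90.9%, against 41.0% of all genes tested), with a median log2 change of -0.68. The cap subunits, which bind RNA at the entry of the channel, fell unevenly. EXOSC2 had the largest fall of the 48 genes, from 82.8, 80.1 and 83.9 CPM to 42.7, 41.8 and 44.4 CPM, or 1.92-fold. EXOSC3 fell from 61.2, 62.2 and 62.4 CPM to 40.5, 40.9 and 40.2 CPM. EXOSC1 changed least of the 3, from 32.5, 31.9 and 33.5 CPM to 29.1, 25.6 and 29.6 CPM (-0.22 ± 0.06, edgeR adjusted p = 0.0037), and its call was lost with upper quartile scaling (-0.10) and the 5 CPM filter (-0.12).

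All 6 subunits of the ring, which in human cells has no nuclease activity of its own, were lower, against 41.0% of all genes tested. EXOSC8 fell from 49.1, 50.7 and 52.1 CPM to 26.6, 27.6 and 26.9 CPM, EXOSC7 from 31.5, 28.8 and 30.1 CPM to 18.7, 18.3 and 18.4 CPM, and EXOSC9 from 47.7, 51.2 and 51.9 CPM to 31.6, 30.7 and 31.8 CPM. EXOSC5 held 46.5, 44.5 and 39.1 CPM in vehicle and 27.0, 24.5 and 26.7 CPM with panobinostat. EXOSC6 held 41.3, 40.7 and 34.9 CPM in vehicle and 25.4, 25.2 and 26.6 CPM with panobinostat. EXOSC4 held 32.4, 31.4 and 25.6 CPM in vehicle and 25.2, 24.2 and 24.9 CPM with panobinostat. In these last 3 genes vehicle replicate 3 was the lowest vehicle library, and for EXOSC4 it came close to the treated ones. The log2 changes of 5 ring subunits lay between -0.90 and -0.60, and that of EXOSC4 was -0.27 ± 0.08 (edgeR adjusted p = 0.00472), a call lost when scaled by upper quartile (-0.15) and the 5 CPM filter (-0.17).

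Of the ribonucleases of the complex 1 fell and 1 rose, where 41.0% of all genes tested were lower and 41.8% higher. EXOSC10, the exonuclease enriched in nucleoli, fell from 113, 115 and 116 CPM to 69.5, 67.7 and 69.4 CPM (-0.74 ± 0.04). DIS3, the main catalytic subunit, held 212, 220.4 and 232 CPM in vehicle and 242, 241 and 240.3 CPM with panobinostat, so that no treated library was below a vehicle library. Its rise of 0.12 ± 0.04 (edgeR adjusted p = 0.00843) did not pass without vehicle replicate 1 (0.07) or vehicle replicate 2 (0.10), or with no filter on low counts (0.08). EXOSC10 counts per DIS3 count were 0.534, 0.520 and 0.5003 in vehicle and 0.288, 0.281 and 0.289 with panobinostat. The groups were thus apart on a scale that needs no normalization, as in 82.9% of all pairs of tested genes with counts in every library. The exact permutation p of this pair was 0.1, the smallest that 3 libraries against 3 allow.

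**Figure D4:**
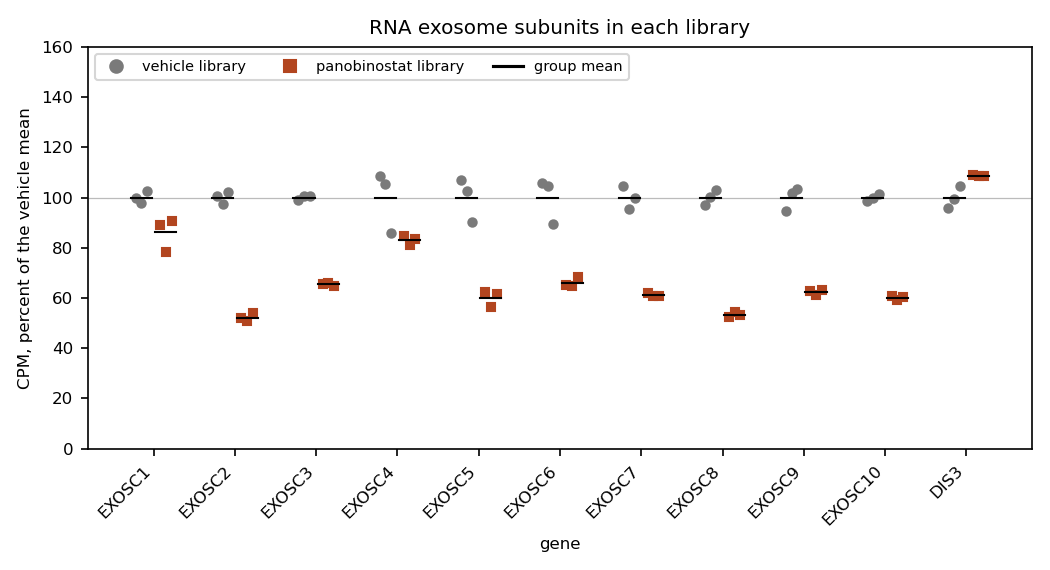
CPM of the 11 exosome subunits in each library as a percent of the gene's vehicle mean, with circles for vehicle, squares for panobinostat and lines for group means. EXOSC2 lies at 50.8 to 54.0 percent in the treated libraries, EXOSC4 at 81.2 to 84.6 percent and DIS3 at 109 percent.

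Genes that overlap a member on the other strand could share reads with it, because no source used here says how strand was handled in counting, and their part in the results was not tested. In the reference annotation (GENCODE release 29) 17 of the 48 genes overlap a protein-coding gene on the other strand. EXOSC9 overlaps CCNA2, which encodes cyclin A2 and fell from 113 to 16.0 CPM. DIS3 overlaps BORA, a mitotic regulator that fell from 25.7 to 9.74 CPM, and PIBF1, which rose from 65.9 to 75.1 CPM. These examples were chosen after their values were seen. The 17 genes had 15 lower and 2 higher, with a median log2 change of -0.65, and the 6 exosome genes among them a median of -0.69. Among the 31 genes with no such overlap 24 were lower, 6 higher and 1 did not pass, with a median log2 change of -0.52, and 5 of the 5 exosome genes without one were lower (median -0.60). Starts on opposite strands within 1000 bases of each other, in either order, were found for 14 tested protein-coding pairs with 1 member. Some of these pairs also overlap, among them EXOSC5 with BCKDHA and DIS3 with PIBF1. Of the 14, 5 were lower in both genes, 2 higher in both, 5 opposite, and 2 had a gene that did not pass. Over 961 other such pairs 25.9% were lower in both genes, 16% higher in both and 25.3% opposite, and 32.8% had a gene that did not pass. Members also host snoRNA genes within their bounds and on their strand: 6 of 48 (12.5%) did, with 23 snoRNAs in all, against 224 of 13414 tested protein-coding genes (1.67%). The hosts were NCL, NOP56, NOP58, DKC1, WDR43 and GNL3, of which all but NOP58 were called lower. Over all genes tested 41.0% were called lower and 41.8% higher.

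Other genes of the pathway, from lists drawn up by name, were also more often lower than higher. Of 215 tested, 153 fell and 19 rose (71.2% and 8.84%, against 41.0% and 41.8% of all genes), with a median log2 change of -0.26. With upper quartile scaling, which moved the median of all genes by 0.12, 119 fell and 39 rose. Of 13 other RNA polymerase I subunits and factors 8 fell and 2 rose (median -0.29), among them the small subunit ZNRD1, from 17.6 ± 0.665 to 7.03 ± 0.391 CPM, and the terminator factor TTF1, from 73.8 ± 2.88 to 41.9 ± 2.66 CPM, whereas TWISTNB rose from 70.2 ± 3.84 to 94.8 ± 6.73 CPM. Other snoRNP proteins and assembly factors fell in 8 of 12 cases and rose in 2 (median -0.29). The box C/D protein NHP2L1 fell from 104 ± 5.18 to 79.8 ± 1.58 CPM, and PIH1D1, part of the chaperone that assembles snoRNPs, rose from 77.3 ± 3.003 to 118 ± 3.14 CPM. Among the 45 small subunit factors (median -0.32) the RNA methyltransferases EMG1 and DIMT1 fell, from 83.9 ± 0.901 to 38.9 ± 2.17 CPM and from 62.0 ± 3.57 to 28.4 ± 0.735 CPM. Of 48 other large subunit factors 34 fell and 3 rose (median -0.30), with 9 rises when scaled by upper quartile and 8 under the filter of 5 CPM. MAK16 fell from 96.1 ± 5.39 to 49.2 ± 1.54 CPM and NOC2L, also an inhibitor of histone acetylation, rose from 266 ± 10.8 to 366 ± 6.13 CPM.

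Cofactors and relatives of the exosome moved in both directions. Of 20 tested, 11 fell and 5 rose (55% and 25%, against 41.0% and 41.8% of all genes tested), with a median of -0.12. Scaled by upper quartile, 6 fell and 5 rose, and the median was 0.0042. DIS3L, the cytoplasmic counterpart of DIS3, fell from 37.3 ± 0.984 to 17.6 ± 0.749 CPM, and MPHOSPH6, which ties nuclear exosomes to their helicase, from 19.0 ± 1.16 to 9.93 ± 0.962 CPM. SKIV2L, the helicase of the cytoplasmic exosome, rose from 62.2 ± 4.17 to 118 ± 1.68 CPM, and HBS1L rose from 54.3 ± 2.86 to 77.0 ± 1.35 CPM. The ribosomal proteins themselves, the products these factors assemble, fell in 60 of 77 cases (77.9%) and rose in 3 (3.90%). The median of these proteins was -0.23. Scaled by upper quartile, 42 fell and 9 rose (median -0.11), and under the filter of 5 CPM 47 fell and 7 rose (median -0.14). RPSA, a small subunit protein, fell from 915 ± 15.3 to 541 ± 23.3 CPM and RPS28 rose from 252 ± 9.46 to 335 ± 17.2 CPM. Their counts made up 5.97% to 6.04% of the vehicle libraries and 5.06% to 5.35% of the panobinostat libraries. The difference between the medians of the 48 genes and of these lists was not tested.

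**Figure D5:**
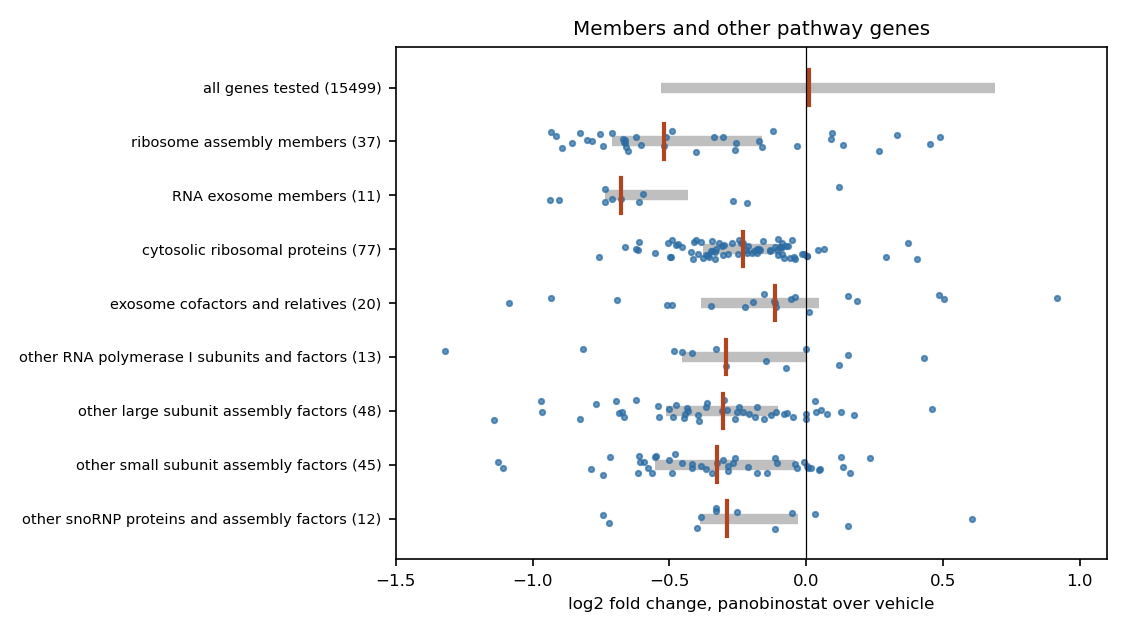
Log2 fold change of panobinostat over vehicle for the genes of each list, with the number tested in brackets; points are genes, grey bars span the middle quartiles and red lines mark medians. The medians are -0.52 for ribosome assembly members, -0.68 for exosome members, -0.23 for ribosomal proteins and 0.0085 for all genes tested, whose single points are not drawn.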

How the data were processed

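RNA of 3 vehicle and 3 panobinostat libraries was analysed from the table deposited by the authors, which holds whole-number read counts per gene symbol with no normalization. STAR is named only in the title of the deposited table (version not given in the sources used here), and no source used here names the genome build, annotation or strandedness. Columns were matched to samples by title and groups were taken from the dose in the labels. The 92 spike-in lines (0 counts) were left out, and 28 date-like lines were kept in the fit and not named. Genes passing filterByExpr were scaled by TMM and tested on group alone with edgeR 4.0.16 (glmQLFit with robust = TRUE, glmQLFTest; R 4.3.3), and called at a Benjamini-Hochberg adjusted p under 0.05. CPM use TMM-scaled library sizes, and SE is the size of the log2 fold change divided by the square root of F. Alternatives were other scalings and filters, DESeq2 1.42.0, limma-voom (limma 3.58.1), a replicate block and leaving out each library. Intervals and SDs cover these libraries only. Promoter windows were matched by symbol to RefSeq. Overlaps, nearby starts on opposite strands and hosted snoRNAs were read from GENCODE release 29 after the counts had been seen. The members and lists were chosen with earlier results of these data known. Values in every library are given for the 10 largest called falls, all called rises, members not called, and all subunits of the snoRNP cores, PeBoW, the RNA polymerase I factors and the exosome; of each wider list, genes named are among the 3 with the smallest adjusted p per direction. Protein sequences were not used here, and the value of 1 marker gene is not reported here.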

Additional observations from a re-analysis of the deposited data

How the results depend on the processing

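Of the 48 genes, 38 kept their call and direction under each of 14 alternatives. The same share over all genes tested was not computed. With no filter on low counts 4 members were higher, all 4 of them in ribosome assembly, and 0 exosome genes were higher. With 1 library left out, 4 to 7 members were higher (0 to 1 exosome genes and 4 to 6 assembly genes) and 38 to 39 lower, with the lowest counts of rises without vehicle replicate 2. Over the 14 alternatives, rises made up 9.3% to 19.05% of the calls in the members and 49.4% to 57.3% of those in all genes tested. Among other pathway genes the number higher was 39 when scaled by upper quartile and 34 under the filter of 5 CPM, against 19 as reported. NOP58 turned to a log2 change of 0.088 when scaled by upper quartile and 0.062 under the filter of 5 CPM, which also moved the median of all genes tested to -0.0088. With a replicate block, using the number in the sample titles, 6 members were higher and 38 lower, PES1, FBL and RRN3 no longer passing. The titles share only a number: deviations of same-numbered libraries correlated at -0.08, -0.06 and -0.14, and no library correlated best with its own number. Differences of about 0.1 on the log2 scale are within reach of the scaling, since upper quartile scaling moved the median of all genes by 0.12.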
